A study of Homo sapiens with 36 samples.

Results

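The small noncoding RNA genes examined here were all genes of the types snRNA, snoRNA, scaRNA, miRNA and misc_RNA in GENCODE 44 on GRCh38, and the clusters described shared 1 nt or more with such a gene on its own strand. A cluster is a stretch of RNA in which PARalyzer, a caller for crosslinking data, found reads with T→C changes, the mark of a crosslinked 4-thiouridine (4SU). Of 278185 clusters in 18 lists, 3115 (1.12%) met the rule, and they lay over 489 of 6983 annotated genes. PAR-CLIP had been carried out with HEK293 Flp-In T-REx cells, a human embryonic kidney line with a single integration site, either stably expressing FLAG-SCAF4 or FLAG-SCAF8 (induced with 100 ng/mL doxycycline per the labels) or left as the parental line with no tagged protein and no doxycycline. In all 3 lines the endogenous SCAF4 and SCAF8 genes were intact. All cells received 4SU (100 μM overnight, then 500 μM for 2 h) and 365 nm light (2000 J/m2), and clusters were called from FLAG immunoprecipitates (IP) and from inputs, with 3 replicates of each. The 6 groups were therefore SCAF4 IP, SCAF8 IP, control IP, SCAF4 input, SCAF8 input and parental input, and each of the 18 lists combined the soluble and chromatin fractions of a replicate. The study's methods instead describe doxycycline for every line, at another concentration. Where the control IP lacked the tag and the doxycycline alike, as in the labels, these cannot be told apart as sources of its differences from the SCAF IPs.

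Small noncoding RNAs fall into families with distinct roles. The snRNAs U1, U2, U4, U5 and U6 are the RNA core of the spliceosome that removes most introns, U11, U12, U4atac and U6atac serve the minor spliceosome, and U7 directs 3′ end processing of replication-dependent histone mRNAs. C/D box and H/ACA box snoRNAs guide 2′-O-methylation and pseudouridylation of ribosomal RNA and in human cells are mostly cut out of the introns of host genes, scaRNAs guide the same modifications on snRNAs in Cajal bodies, and miRNAs are released from hairpins in longer transcripts by DROSHA and DICER1. The misc_RNA type holds 7SK (which keeps the elongation kinase P-TEFb inactive), the RNA of the signal recognition particle (7SL), Y RNAs, and short conserved domains annotated inside long noncoding RNAs. SCAF4 and SCAF8 are RNA-binding proteins that contact the C-terminal domain of RNA polymerase II and limit the use of early polyadenylation sites.

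The following sequences mark the sites to which the results refer. The first is the 5′ end of an abundant snRNA from GRCh38. RNU1-1 (chr1:16514256-16514285, minus strand) is shown with the bases of U1 that pair with 5′ splice sites in capitals.
RNU1-1 5' end: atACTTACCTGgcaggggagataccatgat
The capitals of RNU1-1 were covered from end to end in 2 of the 17 lists with a cluster there (SCAF8 IP replicate 2 and parental input replicate 1).

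Next come C/D box snoRNAs inside host introns, with the C box and the D box in capitals. SNORD101 (in RPS12, windows chr6:132815307-132815336 and chr6:132815350-132815379, plus strand) was found in every list, and SNORD25 (in SNHG1, windows chr11:62855603-62855632 and chr11:62855564-62855593, minus strand) in all 6 SCAF IPs and 1 input.
SNORD101 C box: gtttgaATGATGActttaattgtcggatac
SNORD101 D box: ttatgagtgaaacataagagtCTGAcaaac
SNORD25 C box: cttcctATGATGAggaccttttcacagacc
SNORD25 D box: ctccgtgaggataaataactCTGAggagat
The D box was covered in all 18 lists at SNORD101 and in all 7 lists with a cluster at SNORD25, and the C box in 15 and 6 lists.

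The miRNA sequences (RefSeq, GRCh38.p14, seed bases 2 to 8 in capitals) are those of the MCM7, MIR17HG and let-7 loci, chosen because members of these loci share seeds. A hairpin of RefSeq was matched by symbol for 117 of the 140 miRNA genes with a cluster.
hsa-miR-25-3p: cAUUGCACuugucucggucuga
hsa-miR-92a-3p: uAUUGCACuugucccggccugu
hsa-miR-93-5p: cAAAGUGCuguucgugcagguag
hsa-miR-20a-5p: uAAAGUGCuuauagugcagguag
hsa-miR-19a-3p: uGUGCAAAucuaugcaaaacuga
hsa-miR-19b-3p: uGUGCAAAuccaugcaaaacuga
hsa-let-7a-5p: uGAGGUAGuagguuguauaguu
hsa-let-7f-5p: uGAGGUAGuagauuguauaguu
The mature sequence was covered from end to end by a cluster in 0 to 3 of the 18 lists for each of these 8 miRNAs, in 3 lists for miR-19b-3p (SCAF4 IP in 2, parental input in 1), in 2 lists each for miR-25-3p, miR-93-5p and miR-20a-5p, in 1 list each for miR-19a-3p and let-7f-5p, and in none for miR-92a-3p and the let-7a-5p copy of MIRLET7A3.

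The last sequence spans the 5′ boundary of the MIR6857 hairpin (chrX:53405751-53405780, minus strand) in an intron of SMC1A, with the hairpin in capitals; an exon of SMC1A ends 5 nt before it.
MIR6857 5' boundary: ctacctggaggtgagGCTTGTTGGGGATTG

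The lists differed widely in length, from 1621 clusters (control IP replicate 3) to 54404 (SCAF4 IP replicate 2), a 33.6-fold range. Over snRNA genes the number of clusters stayed between 27 and 57 per list (2.11-fold) and over misc_RNA genes between 18 and 55 (3.06-fold), whereas snoRNA genes had 15 to 141 (9.40-fold) and miRNA genes 7 to 104 (14.9-fold). Spearman's rho with list length, given as a description over 18 lists that share libraries' depth, was 0.739 for snRNA, 0.890 for misc_RNA, 0.932 for snoRNA and 0.958 for miRNA clusters. Set beside the input of the same line and number, the SCAF IP lists held 1.62 to 10.6 times as many clusters in all (median 3.68), 0.936 to 1.50 times as many over snRNA genes (median 1.14), 1.21 to 4.03 times as many over snoRNA genes (median 2.18) and 1.48 to 7.43 times as many over miRNA genes (median 2.69). Read depth is unknown for every list.

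**Figure D1:**
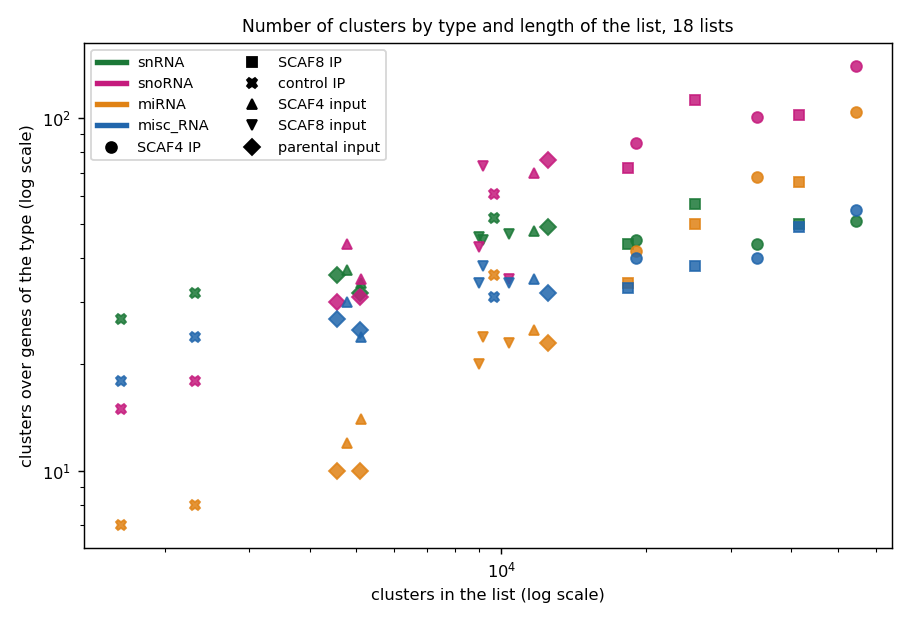
Each point is the number of clusters over genes of a type in 1 of the 18 lists (y axis, log scale) against the number of all clusters of that list (x axis, log scale), coloured by type and shaped by group. The snRNA points lie between 27 and 57 over the whole range of list lengths, while the miRNA points climb from 7 to 104.

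As a share of the list, clusters over small noncoding RNA genes were rarer in the SCAF IPs than in the inputs and the control IP. SCAF4 IP lists held 1.12%, 0.645% and 0.745% and SCAF8 IP lists 1.02%, 1.01% and 0.648% (replicates 1, 2 and 3). The control IP lists held 1.88%, 3.50% and 4.07%, the SCAF4 inputs 1.55%, 2.13% and 2.55%, the SCAF8 inputs 1.97%, 1.35% and 1.60%, and the parental inputs 1.44%, 2.28% and 1.95%. The highest SCAF IP list thus stayed below the lowest list of every other group. The order also held among the replicate 1 lists alone, which came from a separate run with longer reads, and among those of replicates 2 and 3. The mean of the 6 SCAF IPs was 0.864% ± 0.210 (SD, n = 6) and that of their own inputs 1.86% ± 0.442 (n = 6), a difference of -0.994 percentage points (two-sided exact permutation test over lists, p = 0.00216, the smallest possible, and 0.00649 after adjustment over 12 comparisons). Against the control IP (3.15% ± 1.14, n = 3) the difference was -2.29 points (two-sided exact permutation test, p = 0.0119, again the smallest possible, adjusted 0.0143). The p-values measure the spread between lists, and the methods call the replicates biological. By number, members were more frequent in the SCAF IPs (mean 272 per list for SCAF4 and 237 for SCAF8). Their inputs had 138 and 155 and the control IP 109. The SCAF IP lists were also the longest. The part of list length in these differences, in all and by type, was not tested.

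Among the types, snRNA genes showed the largest ratio. Their share was 0.237%, 0.0937% and 0.130% in SCAF4 IP and 0.226%, 0.241% and 0.120% in SCAF8 IP, against 0.410% to 0.772% in their own inputs and 0.540%, 1.38% and 1.67% in the control IP. The own inputs held 3.15 times and the control IP 6.85 times the mean share of the SCAF IPs (0.175% ± 0.0670), with no overlap in either comparison (two-sided exact permutation tests, adjusted p = 0.00649 and 0.0143). The misc_RNA share behaved alike, at 0.146% ± 0.0424 in SCAF IPs, 0.419% ± 0.118 in their inputs and 0.823% ± 0.436 in the control IP (same adjusted exact permutation p-values). For snoRNA genes the means were 0.349% ± 0.0928, 0.636% ± 0.212 and 0.779% ± 0.146, and the SCAF IP and own input lists overlapped (two-sided exact permutation tests, adjusted p = 0.0165 and 0.0143). When lists were paired with own inputs by number, 5 of 6 snoRNA pairs lay below 0, which did not pass (exact sign-flip permutation p = 0.0625).

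The miRNA share moved least, from 0.193% ± 0.0204 in SCAF IPs to 0.241% ± 0.0249 in their inputs, with overlapping lists (two-sided exact permutation test, adjusted p = 0.0104), and stood at 0.384% ± 0.0439 in the control IP (adjusted exact permutation p = 0.0143, no overlap). Paired with own inputs by number, the miRNA share was lower in 5 of 6 pairs, which did not pass (exact sign-flip permutation p = 0.0625). The scaRNA share fell from 0.0407% ± 0.0157 in the inputs to 0.0132% ± 0.00420 in the SCAF IPs (adjusted exact permutation p = 0.00649) on counts of only 2 to 7 clusters per list, and did not pass the test against the control IP (adjusted exact permutation p = 0.988), where replicate 1 had 4 such clusters and the other lists none. SCAF4 IP and SCAF8 IP differed by less than their spread in total (0.837% ± 0.251 against 0.892% ± 0.211, n = 3 each, two-sided exact permutation p = 0.9), and no type passed the test, as 3 lists against 3 cannot go below p = 0.1. At that same limit, each SCAF IP lay below its own inputs without overlap (0.837% against 2.08% for SCAF4, 0.892% against 1.64% for SCAF8, exact permutation p = 0.1 each). The control IP stood above the parental input on average (3.15% against 1.89%, exact permutation p = 0.3), without overlap for miRNA genes only (0.384% against 0.200%, exact permutation p = 0.1).

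**Figure D2:**
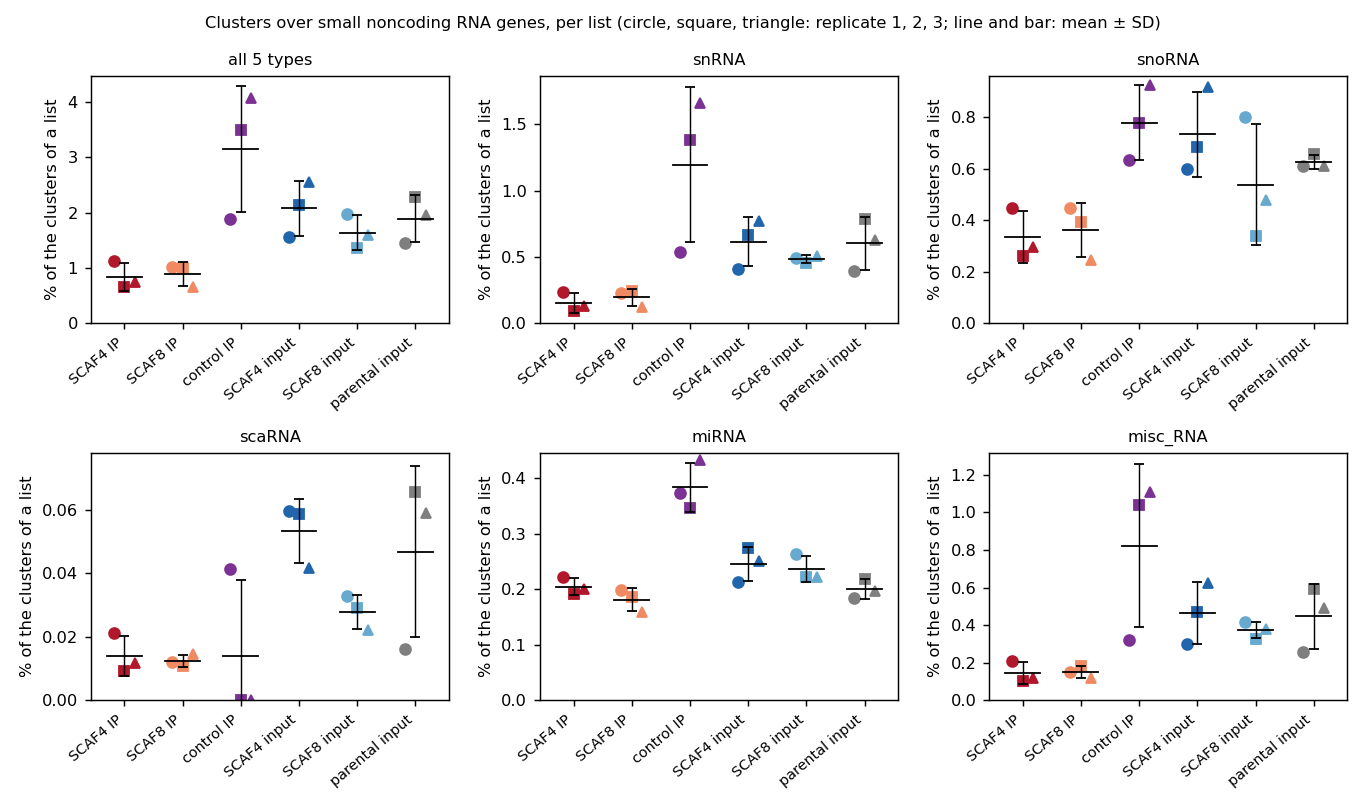
The y axes give the percent of a list's clusters that lay over small noncoding RNA genes, in all and by type, for the 6 groups on the x axis; circle, square and triangle are replicates 1, 2 and 3, and line and bar the mean ± SD (a bar that would pass below 0 is clipped). All 6 SCAF IP lists sit between 0.645% and 1.12% in the first panel, below every input and control IP list.

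Counted within the members alone, the mix of types differed too. In SCAF IPs snRNA genes took 19.6% ± 3.44 of the member clusters against 29.7% ± 3.34 in their own inputs, and misc_RNA genes 16.9% ± 1.64 against 22.5% ± 2.08, while miRNA genes took 23.1% ± 4.58 against 13.3% ± 2.12 (two-sided exact permutation tests, adjusted p = 0.0144 each over 20 comparisons, n = 6 each). For snoRNA genes the shares were 40.2% ± 2.04 and 33.7% ± 5.80 (adjusted exact permutation p = 0.0794). Against the control IP, snRNA genes were again the lower type (36.4% ± 6.66 there) and snoRNA genes the higher (26.2% ± 6.49 there; adjusted exact permutation p = 0.0476 each). These shares of a whole are tied to each other, so a rise in 1 type lowers the rest.

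Detection by gene separated the types as well. At least 1 list had a cluster on 186 of 942 snoRNA genes (19.7%), 9 of 49 scaRNA genes (18.4%), 140 of 1879 miRNA genes (7.45%), 78 of 1901 snRNA genes (4.10%) and 76 of 2212 misc_RNA genes (3.44%). Of the 6983 genes, 4608 carry a name of a copy or pseudogene, a name used at more than 1 locus, or no symbol, and 127 of them had a cluster. They are called copies and pseudogenes below. Genes without a symbol, such as the domains inside long noncoding RNAs, need not be copies. Reads from near-identical copies were placed at a single locus by the alignment, so the copy that holds a cluster is uncertain. After merging overlapping clusters of all lists into 82455 regions, 456 regions were members. Of these, 47 (10.3%) were found in all 18 lists, beside 0.508% of all regions, 148 (32.5%) in all 6 SCAF IP lists, beside 7.38%, 159 (34.9%) in at least 5 of 9 inputs, beside 5.02%, and 110 (24.1%) in at least 2 of 3 control IPs, beside 2.57%. Member regions made up 11.2% of the regions found in every list.

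Some RNAs of the major spliceosome were found in nearly every list, while others varied between groups. RNU5A-1, RNU5B-1 and RNU2-2P had a cluster in 18 of 18 lists, and RNU1-1 in 17 (missing from control IP replicate 3). The 18 RNU5A-1 clusters were 104 to 121 nt long (median 116) over a gene of 116 nt, began within 13 nt of its 5′ end and ended 1 to 4 nt past its 3′ end. The clusters of RNU1-1 (141 to 209 nt, gene 164 nt) began 0 to 22 nt inside the gene (median 8), so that the bases shown in capitals lay partly or wholly outside most of them. RNU4-2 was found in 3 SCAF4 IP, 3 SCAF8 IP, 1 control IP and 7 input lists, and its neighbour RNU4-1 in 2, 2, 1 and 1. RNU6-1, 1 of several identical U6 genes, appeared in 3 SCAF IP and 2 input lists. CCDC200, whose locus holds the U2 array, was the host with the most such genes (13 U2 genes, 10 of them in every list). In all, 72 of 1673 major spliceosome genes had a cluster and 18 had one in all lists.

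Minor spliceosome and histone processing RNAs were more uneven. RNU11 had a cluster of 117 to 183 nt in every list. RNU12 was found in 1 SCAF4 IP, 3 SCAF8 IP, 1 control IP and 4 input lists. RNU4ATAC (chr2:121530881-121531007, in an intron of CLASP1-AS1) was found in 7 of 9 inputs (2 SCAF4, 2 SCAF8 and 3 parental) and in none of the 9 IP lists, the only gene with 3 or more inputs and no SCAF IP list. RNU6ATAC had a single cluster, in a SCAF4 input. RNU7-1, the U7 gene, was found in 1 list of each IP group, in 1 SCAF4 input and in all 3 SCAF8 inputs. These detections carry no test, since absence from a list may only reflect its length.

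Among misc_RNA genes, 7SK (RN7SK, typed snRNA, and the overlapping entry 7SK) and the 7SL genes RN7SL1, RN7SL2 and RN7SL3 had clusters in all 18 lists, with 97.6% to 99.1% of each RN7SK cluster inside the gene. The 7SK copies RN7SKP203 and RN7SKP71 were in all lists too. RNY1 and RNY4 were found in 18 of 18 lists, and RNY1 clusters were 72 to 113 nt long over a gene of 113 nt. RNY3 showed another distribution, with 3 of 3 control IPs, 1 list of each SCAF IP and 4 of 9 inputs. Of the families, 24 of 849 7SL genes, 19 of 300 7SK genes and 8 of 812 Y RNA genes had a cluster. Domains inside long noncoding RNAs were also in all lists: ENSG00000278217 in an exon of MALAT1 (24 clusters) and ENSG00000277577 on chromosome X (19 clusters), whose clusters lay 11.4% and 44.4% inside the domain by the median. ENSG00000277599, in NEAT1, was found in all 6 SCAF IPs, 1 SCAF8 input and no control IP. It was 1 of 4 small noncoding RNA genes in NEAT1 with a cluster. All 4 were found in SCAF IPs and in inputs, and 2 in a control IP.

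Among the snoRNAs, the genes with promoters of their own were found broadly, as 8 of 8 such C/D genes had a cluster and 8 of 8 had one in at least 2 of 3 lists of both SCAF IPs, against 7 of 8 in the control IP. SNORD3A, the U3 snoRNA of pre-rRNA cleavage, was in all 18 lists, SNORD118 (U8) in 16 and SNORD13 (U13) in 10. Of the guide snoRNAs, 102 of 306 C/D and 64 of 214 H/ACA genes had a cluster. Genes in at least 2 of 3 lists numbered 62 (SCAF4 IP), 56 (SCAF8 IP), 12 (control IP), 23 (SCAF4 input), 22 (SCAF8 input) and 21 (parental input) for C/D genes, and 38, 32, 1, 8, 10 and 7 for H/ACA genes. These numbers follow the lengths of the lists and were not tested. SCARNA2, the scaRNA with most detections, was in 5 of 6 SCAF IPs, 1 of 3 control IPs and 9 of 9 inputs, while SCARNA5 and SCARNA6 had no cluster in any list.

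**Figure D3:**
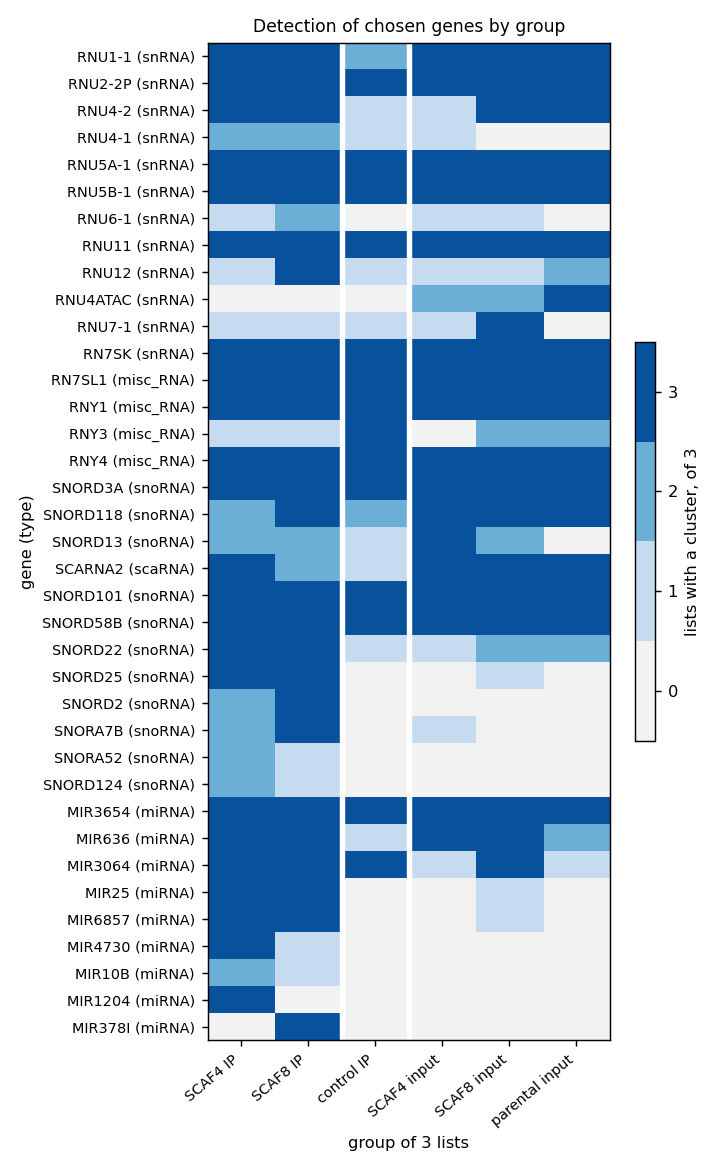
Rows are chosen small noncoding RNA genes with their type, columns the 6 groups, and the shade gives the number of lists, of 3, with a cluster on the gene; the snRNA, misc_RNA and scaRNA rows and SNORD3A, SNORD118 and SNORD13 are textbook genes, and other rows were picked to show breadth of detection or as consensus genes. RNU5A-1, RNU11, RNY1 and SNORD3A are dark in all columns, RNU4ATAC is empty in the 3 IP columns, and MIR25 and MIR6857 are dark in the SCAF IP columns and empty in the control IP.

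Host genes gathered most of the snoRNA and miRNA clusters. Of the snoRNA genes with a cluster, 177 lay in introns and 4 in exons of a host, and 5 had none, and of the miRNA genes 93 lay in introns, 38 in exons and 9 outside any host. Besides CCDC200, the hosts with most small RNA genes under clusters were TAF1D (9 of 9 annotated), GNL3 (6 of 6), NOP56 (6 of 6) and SNHG1 (6 of 7), the first 3 encoding a subunit of the RNA polymerase I factor SL1, a nucleolar GTPase and a core protein of C/D particles, and SNHG1 being a noncoding snoRNA host. In SNHG1, SNORD25 was found in 3 SCAF4 IPs, 3 SCAF8 IPs, no control IP and 1 input, and SNORD22 in 3, 3, 1 and 5, while SNORD27 was found in a single SCAF8 IP. In NOP56, SNORD57 was found in 6 SCAF IPs, 1 control IP and 4 inputs, and SNORD110 in 6, 1 and 5. In TAF1D, SNORA18 was found in 5 SCAF IPs and 4 inputs, and SNORA32, whose clusters lay wholly inside the gene by the median, in 1 SCAF IP, 1 control IP and 3 inputs. All 9 genes of TAF1D were found in SCAF IPs, 5 in inputs and 1 in a control IP.

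A group of 116 genes had clusters in at least 2 SCAF IP lists, in at most 1 input and in no control IP, of which 53 were snoRNA, 49 miRNA, 8 misc_RNA and 6 snRNA genes. Of them 110 (94.8%) lay in a host gene, against 22 of the 40 genes (55.0%) found in all 18 lists, 257 of 305 other genes (84.3%) and 20 of the 28 genes (71.4%) without a cluster in any SCAF IP. The 40 genes in all lists comprised 20 snRNA, 13 misc_RNA, 6 snoRNA and 1 miRNA gene. Both groups were defined by these detections, so the counts are a description. Hosting also differs by type: 5 snoRNA, 9 miRNA, 41 snRNA and 25 misc_RNA genes with a cluster had no host. The shares in a host were not separated from this mix of types. The share of genes of other types that meet the rule of the 116 is not given here. The group therefore cannot be called particular to small noncoding RNA genes. In the control IP, 86 of the 489 genes with a cluster were found in at least 2 lists and 50 in all 3. The same count over genes of other types is not given here. By merged region, 24.1% of members were in at least 2 control IPs, beside 2.57% of all regions.

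Of the 140 miRNA genes with a cluster, 17 had one in all 6 SCAF IPs and 1 in all 18 lists. MIR3654, in an intron of CHCHD3, was that gene, yet its clusters (182 to 664 nt) held the 56-nt hairpin as 15.1% of their length by the median. MIR636 in SRSF2 was found in 15 lists, MIR3064 in DDX5 in 14. MIR25, in an intron of MCM7 (chr7:100093560-100093643), had a cluster in all 3 SCAF4 IPs (152, 145 and 191 nt) and all 3 SCAF8 IPs (212, 121 and 132 nt), in 1 SCAF8 input (86 nt) and in no control IP. Its neighbour MIR93 was found in 2 SCAF4 IPs and 2 SCAF8 IPs only. The mature miR-25-3p and miR-93-5p were each covered from end to end in 1 SCAF4 IP and 1 SCAF8 IP. In the miR-17 cluster, MIR20A shares the seed of MIR93 and MIR92A1 that of MIR25, while MIR19A and MIR19B1 carry another. MIR19A was found in 2 SCAF4 IPs and 1 SCAF8 IP, and MIR20A in 2 and 1 plus 2 SCAF8 inputs. MIR19B1 was found in 2 SCAF4 IPs, 2 SCAF8 inputs and 1 parental input, and MIR92A1 in 2 SCAF4 IPs and 1 parental input. These detections are not separate sites, as single clusters spanned several hairpins. The SCAF4 IPs held 1, 2 and 1 clusters over the miR-17 cluster, and SCAF8 IP replicate 1 held 1. In the let-7 family 3 of 11 genes had a cluster, with MIRLET7A3 and MIRLET7F2 in 2 SCAF4 IPs each and MIRLET7A1 in 1 SCAF8 IP. No control IP list had a cluster on these genes. MIR98, which carries the let-7 seed under another name and lies beside MIRLET7F2 in HUWE1, was found in 3 SCAF4 IPs, 1 SCAF8 IP, 2 control IPs and no input.

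Many miRNA genes were overlapped from the side. Of 93 intronic miRNA genes with a cluster, 48 (51.6%) lay within 10 nt of an exon of the host's canonical isoform, against 184 of 1098 (16.8%) without a cluster. At MIR6857 the clusters ran 157 to 193 nt in the 6 SCAF IPs and 180 nt in 1 SCAF8 input, lay 0.524% to 1.55% inside the hairpin and otherwise over the SMC1A exon and the 5 intron bases before it. For intronic snoRNA genes, 99 of 177 with a cluster (55.9%) lay within 100 nt of a host exon, against 64 of 387 without (16.5%). Since a cluster on an exon can reach a nearby small RNA gene by length alone, these shares are tied in part to how members were chosen, and they carry no test.

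How clusters sat on the gene differed by type and by group, with the largest difference from own inputs for snoRNAs. In SCAF IPs, 92.0% ± 2.73 of the length of snRNA clusters lay inside the gene, 77.7% ± 3.86 for misc_RNA, 52.6% ± 4.47 for snoRNA and 23.1% ± 1.11 for miRNA clusters, of which a further 51.1% ± 3.74 lay in exons of other genes (n = 6 lists each). For a cluster that met several small noncoding RNA genes, only the length inside the gene it was assigned to was counted here. A cluster longer than its gene cannot lie wholly inside it, so gene length limits the comparison between types. In the own inputs the values were 95.1% ± 3.27, 84.5% ± 2.29, 67.3% ± 3.43 and 27.3% ± 3.06. The middle of a snoRNA was covered by 87.1% ± 2.66 of the SCAF IP clusters on it and by 87.0% ± 3.95 of the input clusters, but 105 nt downstream of the gene the values were 22.5% ± 6.02 and 12.2% ± 3.94, and 95 nt upstream 23.2% ± 3.45 and 14.0% ± 5.32. Positions beside a snoRNA gene can lie in the intron or in an exon of the host, and 34.1% ± 2.87 of the SCAF IP clusters on snoRNA genes overlapped an exon of another gene's canonical isoform, against 24.9% ± 6.66 of the input clusters.

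**Figure D4:**
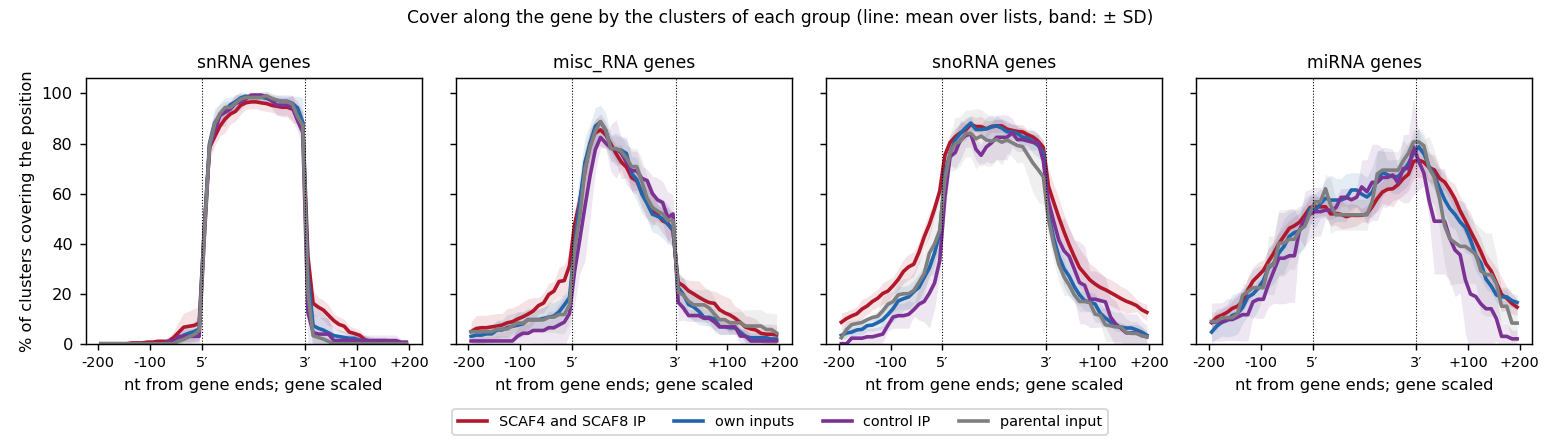
For clusters on snRNA, misc_RNA, snoRNA and miRNA genes, the y axis gives the percent that cover a position, and the x axis the position from 200 nt before the 5′ end to 200 nt past the 3′ end, with the gene scaled to a fixed width; lines are means over lists of a group and bands ± SD. Cover falls steeply at both ends of snRNA genes, and past the ends of snoRNA genes the SCAF IP line runs above the inputs (22.5% and 12.2% at 105 nt downstream).

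The share of snoRNA clusters with at least 80% of their length inside the gene was 29.4%, 14.3% and 18.8% in SCAF4 IP and 24.8%, 29.2% and 20.8% in SCAF8 IP. It was 41.4%, 48.6% and 43.2% in the SCAF4 inputs, 41.1%, 40% and 44.2% in the SCAF8 inputs, 26.3%, 36.7% and 41.9% in the parental inputs and 32.8%, 55.6% and 40% in the control IP. All SCAF IP lists lay below all lists of their own inputs (22.9% ± 6.01 against 43.1% ± 3.08, n = 6 each, two-sided exact permutation p = 0.00216, adjusted 0.0144) and below the control IP (42.8% ± 11.6, n = 3, adjusted exact permutation p = 0.0340), though parental input replicate 1 fell within their range. This measure was chosen after its values were seen, and p-values were adjusted over 20 such tests. It counted the length inside any small noncoding RNA gene that a cluster met. With only genes that had a cluster in an input list, so that new genes in the IP did not enter, the SCAF IP value was 24.3% ± 6.91 (adjusted exact permutation p = 0.0144 against own inputs). Gene by gene, the median inside share was lower in SCAF IPs for 82 of 119 snoRNA genes with both values and higher for 30. It was lower for 28 of 40 miRNA genes and higher for 12. For snRNA genes it was lower for 29 of 57 and higher for 18, and for misc_RNA genes lower for 12 of 46 and higher for 11. Median cluster length over the 119 snoRNA genes was 193 nt in SCAF IPs and 159 nt in inputs. Whether longer lists with more reads would give the same extension was not tested.

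At SNORD101 the lengths were 165, 591 and 522 nt in SCAF4 IP and 495, 135 and 173 nt in SCAF8 IP over a gene of 73 nt, against 120 nt in each control IP list, 107 to 153 nt in the SCAF4 and SCAF8 inputs and 280, 113 and 121 nt in the parental inputs. In the longest of these, clusters extended up to 457 nt upstream of the snoRNA, past an exon boundary of RPS12 that lies 218 nt away. At SNORD22, of 126 nt, the clusters were 128 to 240 nt long in the SCAF IPs, 87 to 219 nt in the 5 input lists with a cluster and 100 nt in the control IP list that had one. For snRNA genes the inside share was 83.9% ± 6.64 in SCAF IPs and 93.9% ± 6.40 in own inputs (adjusted exact permutation p = 0.0464, lists overlapping), and for misc_RNA genes 63.5% ± 6.06 and 75.4% ± 5.76 (adjusted exact permutation p = 0.0379). snRNA clusters that ended over 20 nt past the 3′ end made up 15.2% ± 3.98 in SCAF IPs and 6.53% ± 8.42 in own inputs, which did not pass after adjustment (exact permutation p = 0.0455, adjusted 0.0529), and 3.85% ± 6.66 in the control IP (adjusted exact permutation p = 0.0433). Without copies and pseudogenes the difference from own inputs was 3.80 points (exact permutation p = 0.502). Over miRNA genes, 0% to 2.44% of SCAF IP clusters per list lay mostly inside the hairpin.

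**Figure D5:**
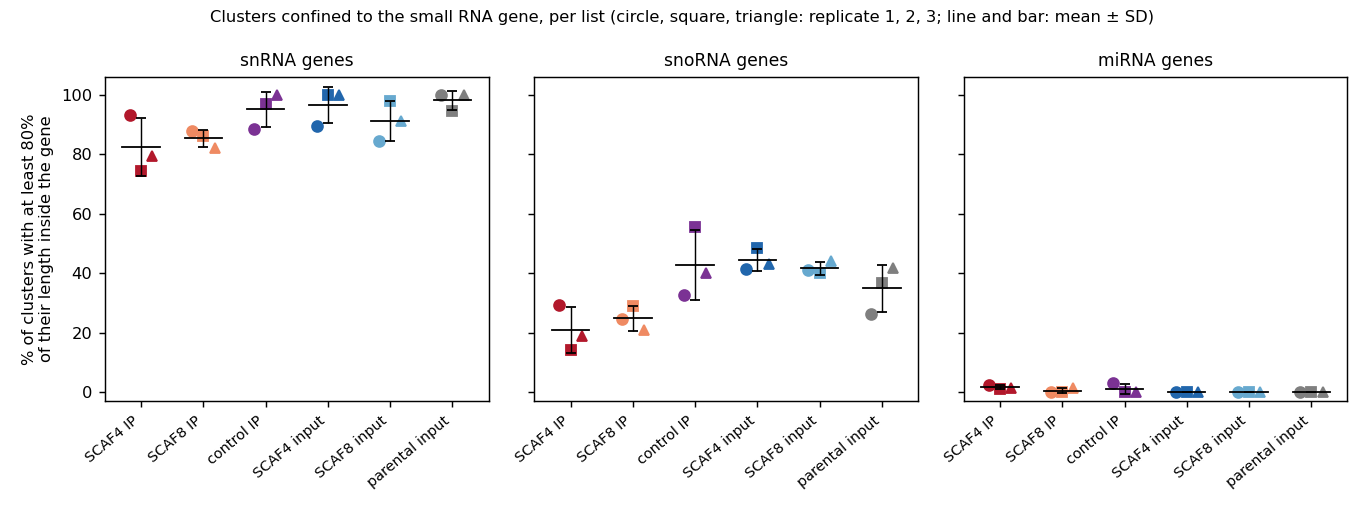
The y axis gives the percent of clusters on snRNA, snoRNA and miRNA genes with at least 80% of their length inside the gene, for the 6 groups on the x axis; circle, square and triangle are replicates 1, 2 and 3, and line and bar the mean ± SD. For snoRNA genes the 6 SCAF IP lists lie between 14.3% and 29.4% and the 6 lists of their own inputs between 40% and 48.6%.

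The filters of the study's consensus, taken over as far as the lists allow, removed most members. They keep regions found in at least 2 replicates and in at most 1 input, outside genes with an input region density of 1 or more per 10 kb, and with no control IP cluster. A gene that spans 10 kb or less, with the stretches counted beside it, reaches the density limit with 1 input region. Losses at the density filter can thus be tied to gene length, and the part of gene length in them was not tested. For SCAF4, 278 member regions in at least 2 lists fell to 85 after the input filter, 16 after the density filter and 15 after the control filter (5.40%, beside 35.7% of all SCAF4 regions). For SCAF8, 241 fell to 48, 8 and 6 (2.49%, beside 25.8%), and for both proteins pooled 347 fell to 128, 30 and 29 (8.36%, beside 40.1%). By type, 12.3% of the miRNA regions of SCAF4 were left, 7.50% of misc_RNA, 1.75% of snoRNA and none of the 44 snRNA regions. The 15 SCAF4 regions lay over 10 miRNA, 3 misc_RNA and 2 snoRNA genes, the 6 SCAF8 regions over 3 miRNA genes and 1 gene each of snRNA, snoRNA and misc_RNA, and 2 of the 19 genes were shared (13.3% of the SCAF4 and 33.3% of the SCAF8 genes). By region, 20% of the SCAF4 members overlapped a SCAF8 consensus region, beside 28.3% of all SCAF4 consensus regions, and 33.3% of the SCAF8 members a SCAF4 region, beside 54.0%. Of the 15 SCAF4 regions, 12 also overlapped an exon of a gene of another type in some isoform.

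The consensus genes detected in most SCAF IPs were SNORA7B (an H/ACA snoRNA, 5 SCAF IPs and 1 input), ENSG00000276784 in an exon of JPX and MIR4730 in an intron of ENDOV (4 each). In 3 SCAF IPs each were found ENSG00000276496 in HOXA11-AS, MIR10B in HOXD3, MIR1204 in PVT1 (all SCAF4 IP), MIR378I in TNFRSF13C (all SCAF8 IP), RNU2-23P, SNORA52 in RPLP2 and SNORD124 in MED24. MIR1244-4 in BCL2L14, MIR1281, MIR1825 in POFUT1, MIR638 in DNM2 and MIR6859-4 in WASH4P were found in 2 each. Apart from SNORA7B none of these had a cluster in any input. The choice largely fixed this, as the consensus allows at most 1 input and ties were ranked by fewest inputs. At MIR4730 (chr17:80419418-80419493), clusters of 130, 329 and 164 nt in SCAF4 IP and 240 nt in a SCAF8 IP held the 76-nt hairpin as 23.1% to 37.7% of their length. At SNORA7B (chr3:129397210-129397348) the 131-nt cluster of SCAF8 IP replicate 1 lay 99.2% inside the gene, and the 416-nt cluster of SCAF4 IP replicate 2 only 33.4%. The SCAF4 region at MIR10B (144 nt) covered 19.1% of the hairpin and continued past its 3′ end. MIR25 and SNORD25, present in all 6 SCAF IPs, were absent from the consensus. The filter that removed each of them is not given here.

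Compared with the other clusters of the same SCAF IP list, members recurred more often elsewhere. In the 6 lists, 81.5% ± 6.77 of members overlapped a cluster of an input list, against 48.5% ± 10.9 of other clusters, 53.0% ± 6.80 against 14.2% ± 5.16 did so in at least 5 inputs, and 66.4% ± 7.48 against 27.1% ± 8.36 overlapped a control IP cluster. By type the share in a control IP was 88.7% ± 5.24 for snRNA, 70.8% ± 10.4 for misc_RNA, 60.3% ± 5.41 for snoRNA and 54.8% ± 10.4 for miRNA clusters. Members were also longer (median 174.5 against 146.7 nt, a measure tied in part to the rule, because longer clusters meet a gene more often), richer in U (27.1% against 24.9%) and ranked lower by the score of the list (median percentile 33.2 against 50.1). By type the score percentile was 24.3 for snRNA and 23.8 for misc_RNA clusters but 52.6 (lists from 37.3 to 88.9) for snoRNA and 49.2 (35.0 to 61.6) for miRNA clusters, and U made up 21.7% ± 1.04 of miRNA clusters, below the other clusters of the lists. Over all members, each of these measures had the same direction in all 6 lists (p = 0.03125 in each two-sided exact permutation test with flipped signs, which is the lowest that 6 lists allow, and 0.03125 after adjustment over 17 tests).

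Short sequences were counted in the 100 nt at the middle of each cluster, on the strand of the cluster, and were chosen with earlier results of these data known. CGG or CGA occurred in 74.8% ± 2.51 of members and 66.9% ± 2.76 of other SCAF IP clusters, and CUCC or CACC in 56.2% ± 2.88 and 48.4% ± 1.16 (exact sign-flip permutation p = 0.03125, 6 of 6 lists). CAG with C or G on each side occurred in 46.9% ± 3.28 and 42.6% ± 2.51 (same exact p). In the 9 inputs the values were 78.1% ± 5.15 against 57.8% ± 5.06 for CGG or CGA and 59.2% ± 5.72 against 41.9% ± 2.89 for CUCC or CACC (9 of 9 lists, exact sign-flip permutation p = 0.00391, adjusted 0.0111). By type, CGG or CGA was present in 89.5% ± 2.52 of snRNA and 60.9% ± 3.19 of snoRNA clusters of the SCAF IPs. The same few abundant RNAs recur in every list, so these counts are not independent sites.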

How the data were processed

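PAR-CLIP clusters were taken from 18 lists as deposited, each made by the authors from the reads of 2 GEO samples (soluble and chromatin fraction, 36 samples in all). Per the paper and the submitters' processing notes, the authors trimmed reads with Trim Galore and cutadapt, aligned them to GRCh38 with Bowtie2 2.2.9 reporting a single locus per read, removed duplicates with Picard, and called clusters with PARalyzer under minima of reads and T→C changes. Reads from multicopy small RNA genes are thus held by 1 copy. The lists precede the authors' filters on inputs. The score of each cluster, as deposited by the authors, has no stated definition and only ranked clusters within a list. Replicate 1 was sequenced with longer reads than replicates 2 and 3, and read depth is unknown, so shares have no interval for depth.

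Clusters were intersected with GENCODE 44 genes (Python 3.11.15, pandas 2.3.3, pysam 0.24.0, samtools 1.23.1), and a cluster over several genes was assigned for position measures to the gene with the largest overlap, with a gene that is no copy preferred where its overlap reached 90% of the largest. Input density counted merged input regions over the gene and 2000 nt beside it. Lists were the unit of replication. Two-sided exact permutation tests (threshold 0.05) compared shares and exact sign-flip permutation tests compared members with other clusters of a list, with Benjamini-Hochberg adjustment within each family. Deviations from the group means went together in same-numbered control IP and parental input lists (correlations 0.571 to 0.964) and not steadily in the SCAF lists. The main tests of shares treated lists as unpaired, with a replicate block as an alternative. The procedures were tested on simulated data. Alternatives covered the overlap rule, score, unit of share, exons of other genes, copies, filters, replicates and a replicate block. The members, gene lists and named genes were chosen with earlier results of these data known. Named were the 10 genes in most lists (also the first 10 by control IP lists), the 15 consensus genes in most SCAF IPs, textbook genes (RNY5 was not analysed here) and the 5 hosts with most genes. Further examples (MIR25, MIR93, the miR-17 and let-7 genes, MIR636, MIR3064, MIR6857, the domain in NEAT1, RNY1 lengths and single snoRNAs) were chosen after their values were seen.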

Additional observations from a re-analysis of the deposited data

Results flagged for a closer look

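The difference between IP and input of the same number went opposite ways in the tagged and the parental lines. Over all small noncoding RNA genes, the 6 SCAF pairs had a mean difference in share of -0.994 percentage points (all 6 below 0) and the 3 parental pairs of 1.26 points (all 3 above 0), so that the SCAF pairs minus the parental pairs came to -2.25 points (exact permutation of the pair labels, p = 0.0119, the smallest possible, adjusted 0.0179 over 6 comparisons). By type the same contrast was -0.968 points for snRNA, -0.649 for misc_RNA and -0.232 for miRNA genes (exact permutation p = 0.0119, adjusted 0.0179 each) and -0.440 points for snoRNA genes (exact permutation p = 0.0357, adjusted 0.0429). The scaRNA genes did not follow, at 0.00562 points (exact permutation p = 0.798) with 1 of 3 parental pairs above 0. The contrast takes differences within same-numbered lists, which deviated together in the parental line but not in every pair of the SCAF lines. The lists of the parental line also moved the other way in length. SCAF IP lists held 1.62 to 10.6 times as many clusters as the input of the same number, and control IP lists 0.319 to 0.771 times as many. The part of list length in the contrast was not tested.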

How the results depend on the processing

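Lists give no reads, so clusters missing from short lists (1621 and 2314 clusters in control IP replicates 3 and 2) cannot be told apart from RNAs without crosslinks, and reads of copies cannot be reassigned. The lower share of small noncoding RNA genes in SCAF IPs than in their own inputs kept its direction and passed the test under every overlap, score, exon, copy and nucleotide alternative and without each replicate. Same-numbered SCAF IP and input lists came from the same line and carried the same replicate number. Correlations of their deviations ran from -0.971 to 0.907, which cannot show that these lists are unpaired. With a replicate block their difference (-0.994 points, 6 of 6 pairs below 0) had an exact sign-flip permutation p of 0.03125, and snRNA, scaRNA and misc_RNA genes the same, while snoRNA (-0.287) and miRNA genes (-0.0480) had 5 of 6 pairs below 0 and an exact p of 0.0625, above the threshold. Control IP minus parental input (1.26 points, 3 of 3 pairs above 0) had an exact p of 0.25 with the replicate block, the smallest possible, and the block changed no call there. By type, some comparisons with own inputs no longer passed: scaRNA and miRNA genes with the score limit (clusters scoring no less than the median of their list), scaRNA genes without clusters over other exons, miRNA genes by covered nucleotides and without replicate 2 or 3, and snoRNA genes without replicate 1 or 3. Against the control IP, the difference ran from -3.02 to -1.74 without replicate 1, 2 or 3, where the exact permutation p cannot fall below 0.0667, and the scaRNA difference ran from -0.00748 to 0.0116.

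SCAF4 minus SCAF8 IP cannot pass the test with 3 lists each, and it changed sign with the score limit (0.0628 in all, 0.0332 for snoRNA, 0.00983 for misc_RNA genes), with midpoints inside the gene (-0.00401, miRNA) and without clusters over other exons (-0.00540, miRNA; -0.00158, scaRNA). Without single replicates it ran from -0.132 to 0.0990 in all, from -0.0689 to 0.00987 for snRNA, from -0.0678 to 0.0253 for snoRNA, from -0.00221 to 0.00370 for scaRNA and from -0.0398 to 0.0297 for misc_RNA genes.

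Of the differences between members and other clusters, the score percentile was 17.3 points higher in members with the score limit, and length differed by 7.75 nt without clusters over other exons, short of the test. CAG with C or G on each side exceeded other clusters by 2.88 points by midpoint, 2.36 with the score limit and 1.20 without copies, CUCC or CACC by 9.58 by midpoint and CGG or CGA by 6.64 with the score limit, and none of these passed the test. Leaving out a replicate leaves 4 lists and a smallest exact permutation p of 0.125. The differences then ran from 30.9 to 34.8 points (in an input), 37.2 to 40.04 (in 5 or more inputs), 37.5 to 40.3 (in a control IP), 23.75 to 31.25 nt (length), 1.49 to 1.87 (GC), 2.09 to 2.31 (U), -17.8 to -15.2 (score percentile), 7.57 to 8.38 (CGG or CGA), 3.59 to 4.93 (CAG with C or G on each side) and 7.19 to 8.47 (CUCC or CACC).

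Consensus counts moved with the filters. SCAF4, SCAF8 and pooled members numbered 67, 39 and 108 without the density filter, 3, 2 and 12 when all 3 replicates were required, and 3, 3 and 11 without regions over other exons. By midpoint 7 (SCAF4) and 17 (pooled) were left. Leaving out a replicate gave 8 to 24, 1 to 14 and 16 to 45, highest in each case without replicate 1. Without clusters over other exons, genes with a cluster fell from 489 to 205 in any list, 461 to 185 in SCAF IPs, 304 to 143 in inputs and 204 to 95 in control IPs.

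For the measures of position, chosen with their alternatives after the data were seen, the snoRNA difference from own inputs (-20.2 points) passed in every alternative run, and ran from -23.2 to -18.4 without single replicates. The snRNA 3′ difference (8.69 points) was 3.80 without copies and ran from 5.75 to 14.1 without single replicates, highest without replicate 1.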
